A study of Homo sapiens with 27 samples.

Results

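Expression of 7 genes of cholesterol synthesis and its control, *SREBF2*, *INSIG1*, *HMGCS1*, *IDI1*, *FDFT1*, *SQLE* and *DHCR7*, was followed over 21 days in uveal melanoma cells under inhibition of focal adhesion kinase (FAK). They were the 7 of the 61533 genes in the raw count table that carry these symbols, and all 7 passed the filter on low counts in each comparison. The cells were 92.1, an established uveal melanoma line with a *GNAQ* mutation, grown in serum-containing RPMI medium that was refreshed together with the treatment. DMSO, the solvent, was sampled at days 0, 3, 7, 14 and 21, and VS-4718 at 100 nM, the FAK inhibitor (FAKi), at days 3, 7, 14 and 21, which gives 9 groups of 3 libraries and 27 mRNA libraries in all. The cells of every group are 1 line with the *GNAQ* mutation, so no group lacks it, and FAKi has no group at day 0. The label set numbers the replicates 1 to 3, and the study's methods describe them as repeats of the whole experiment.

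Cells make cholesterol from acetyl-CoA through the mevalonate pathway, or take it up in lipoprotein particles. When sterols in the endoplasmic reticulum run low, SREBP2, the product of *SREBF2*, is carried by its escort SCAP to the Golgi, cleaved and released to the nucleus, where it switches on the genes of synthesis and uptake; when sterols are plentiful, INSIG1 holds SCAP and SREBP2 back. SREBP2 binds sterol regulatory elements in promoters, commonly next to boxes for the factor NF-Y, and *INSIG1* is itself among its targets. Because the cleavage is a step on the protein, the mRNA level of *SREBF2* does not measure SREBP2 activity.

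At day 14, 5 of the 7 genes were higher in FAKi than in DMSO, given as mean CPM (counts scaled to the size of the library). *HMGCS1*, which makes HMG-CoA, was at 368 in FAKi and 155 in DMSO, and *IDI1*, the isopentenyl diphosphate isomerase, at 202 and 95.1. *DHCR7*, which makes cholesterol from its last precursor, was at 95.1 and 47.1, *INSIG1* at 79.1 and 44.6 and *SQLE*, the squalene epoxidase, at 355 and 224. At day 0, DMSO had 468 CPM of *SQLE* and 60.3 CPM of *DHCR7*. Both were thus lower in DMSO at day 14, and *SQLE* in FAKi at day 14 was below DMSO at day 0. *FDFT1*, the squalene synthase, and *SREBF2* did not pass the test. Of all genes tested at day 14, 6.35% were called higher, and 12% of those with a mean of at least 10 CPM. At day 21, *HMGCS1* was higher and *SQLE* lower in FAKi, where 5.27% and 6.32% of all genes were. Each of these 2 calls was lost in most fits that left out 1 library. At days 3 and 7 none of the 7 passed the test, where 0% and 0.0269% of all genes did. In DMSO itself *HMGCS1* rose 4.20-fold between day 0 and day 14, or 2.97-fold with all counts of an overlapping antisense gene taken off, which may take off too many.

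Libraries held 12161994 to 43651551 counts in all, and the smallest count of any of the 7 genes in any library was 407, for *HMGCS1*. The melanocyte genes *MITF*, *SOX10*, *PMEL*, *MLANA*, *DCT* and *TYRP1* had counts in all 27 libraries, and of 7 markers of other cells *KRT5* was at 0 in each, *EPCAM*, *PTPRC*, *COL1A2* and *PECAM1* at no more than 15 counts, and *COL1A1* and *CD68* at 53 to 445 and 468 to 5553 counts. *CD68*, a lysosomal protein of macrophages, was called lower in FAKi at day 14 (-0.37, edgeR adjusted p = 0.0353) and day 21 (-1.32, edgeR adjusted p = 0.00379). The share of counts from mitochondrial genes also moved with the groups: it was 17.0% to 18.8% in DMSO at day 0, 21.95% to 26.97% in DMSO and 20.7% to 22.1% in FAKi at day 14, and 5.49% to 9.75% in DMSO and 10.7% to 11.2% in FAKi at day 21. At day 3 it was 18.1%, 9.59% and 8.61% in DMSO and 16.8% to 18.7% in FAKi, and its part in the results was not tested. A single library of each of 3 groups stood apart. Over the 12709 genes with a mean of at least 5 CPM, FAKi day 7 replicate 1 lay 0.608 to 0.649 from its replicates, as root mean square difference of log2 CPM, and 0.123 from FAKi day 14 replicate 1. The median chi-square per gene between these latter libraries was 0.715, against 2.43 to 5.51 between the FAKi day 14 replicates and the 0.455 that counting alone gives. DMSO day 21 replicate 3 lay 0.642 to 0.667 from its replicates and 0.252 from DMSO day 3 replicate 3, and DMSO day 3 replicate 1 lay 0.502 to 0.725 from its replicates and 0.203 from DMSO day 0 replicate 3. Results at days 3, 7 and 21 are therefore given with and without these libraries; none of the 3 is in the comparison at day 14. The column header of DMSO day 21 replicate 3 has a 7 before the 21, while its sample title gives day 21. Whether these 3 libraries carry the right labels was not tested and cannot be told from the distances, so values at days 3, 7 and 21 hold for the libraries as labelled. In bulk RNA, fewer cells that express a gene and less RNA per cell cannot be told apart.

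The promoter windows of the 5 genes found in the RefSeq table (GRCh38.p14, 250 bases before to 50 after the annotated start) are shown as background. The same factor is known to act on these promoters, and its part in the levels measured here was not tested. Capitals mark matches, on either strand, to TCACNCCAC, the core of a sterol regulatory element, to CCAAT, the NF-Y box, whose reverse complement reads ATTGG, and to CACGTG, an E-box. The windows are chr22:41832855-41833154 on the plus strand for *SREBF2*, chr7:155297628-155297927 on the plus strand for *INSIG1*, chr5:43313363-43313662 on the minus strand for *HMGCS1*, chr10:1048837-1049136 on the minus strand for *IDI1* and chr11:71448344-71448643 on the minus strand for *DHCR7*. *SQLE* and *FDFT1* are not shown.
SREBF2: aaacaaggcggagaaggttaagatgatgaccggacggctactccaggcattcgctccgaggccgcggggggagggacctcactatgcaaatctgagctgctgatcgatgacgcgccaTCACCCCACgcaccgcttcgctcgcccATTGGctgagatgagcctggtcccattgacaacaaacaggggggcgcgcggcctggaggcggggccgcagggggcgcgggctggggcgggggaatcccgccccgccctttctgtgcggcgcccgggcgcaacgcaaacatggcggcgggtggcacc
INSIG1: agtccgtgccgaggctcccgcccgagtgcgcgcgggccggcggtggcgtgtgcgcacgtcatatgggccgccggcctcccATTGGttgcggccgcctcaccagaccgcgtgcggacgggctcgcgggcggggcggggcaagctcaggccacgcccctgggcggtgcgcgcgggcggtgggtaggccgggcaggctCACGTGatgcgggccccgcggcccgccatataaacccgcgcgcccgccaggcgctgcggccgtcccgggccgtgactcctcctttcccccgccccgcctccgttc
HMGCS1: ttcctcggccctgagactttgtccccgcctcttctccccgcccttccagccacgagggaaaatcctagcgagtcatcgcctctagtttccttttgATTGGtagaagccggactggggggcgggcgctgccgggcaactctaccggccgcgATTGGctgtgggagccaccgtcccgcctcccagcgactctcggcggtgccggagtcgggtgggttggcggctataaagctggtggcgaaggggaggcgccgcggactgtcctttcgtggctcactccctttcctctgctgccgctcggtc
IDI1: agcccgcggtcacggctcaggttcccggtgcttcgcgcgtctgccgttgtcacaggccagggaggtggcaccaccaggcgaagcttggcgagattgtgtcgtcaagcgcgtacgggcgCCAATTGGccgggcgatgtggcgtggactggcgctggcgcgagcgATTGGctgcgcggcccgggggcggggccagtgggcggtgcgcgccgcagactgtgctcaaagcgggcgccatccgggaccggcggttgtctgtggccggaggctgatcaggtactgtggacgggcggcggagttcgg
DHCR7: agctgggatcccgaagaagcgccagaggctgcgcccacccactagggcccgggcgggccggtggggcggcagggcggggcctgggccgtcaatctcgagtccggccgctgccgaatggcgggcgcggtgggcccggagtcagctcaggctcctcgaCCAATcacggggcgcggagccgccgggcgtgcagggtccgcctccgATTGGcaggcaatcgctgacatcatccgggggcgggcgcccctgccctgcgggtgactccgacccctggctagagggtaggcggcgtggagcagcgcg
All 5 windows hold at least 1 CCAAT box, which 34.6% of the 35116 windows in the table hold. *IDI1* has 3, of which a pair overlaps in the run CCAATTGG at -132 and -129 from the start, *HMGCS1* and *DHCR7* have 2 each, and *SREBF2* and *INSIG1* have 1 each. TCACNCCAC is present in *SREBF2*, at -133, followed by the NF-Y box at -106, and in 1.13% of all windows. CACGTG is present in *INSIG1*, at -55, and in 7.26% of all windows. The absence of a match says only that these letters are not in the window.

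Set per kilobase of the counted transcript and averaged over the 27 libraries, *FDFT1* was the most abundant of the 7 at 151 CPM per kb, followed by *SQLE* at 100 and *SREBF2* at 47.5. *DHCR7* at 25.4, *IDI1* at 23.9, *HMGCS1* at 19.3 and *INSIG1* at 17.2 CPM per kb were lower. The spread over groups followed another order: the highest group mean was 11.2 times the lowest for *HMGCS1*, 4.13 times for *IDI1*, 2.36 for *SQLE*, 2.02 for *DHCR7*, 1.93 for *INSIG1*, 1.79 for *SREBF2* and 1.37 for *FDFT1*. All levels below are CPM, scaled with TMM over the 27 libraries, and not per kb, so that they compare libraries and not genes.

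**Figure D1:**
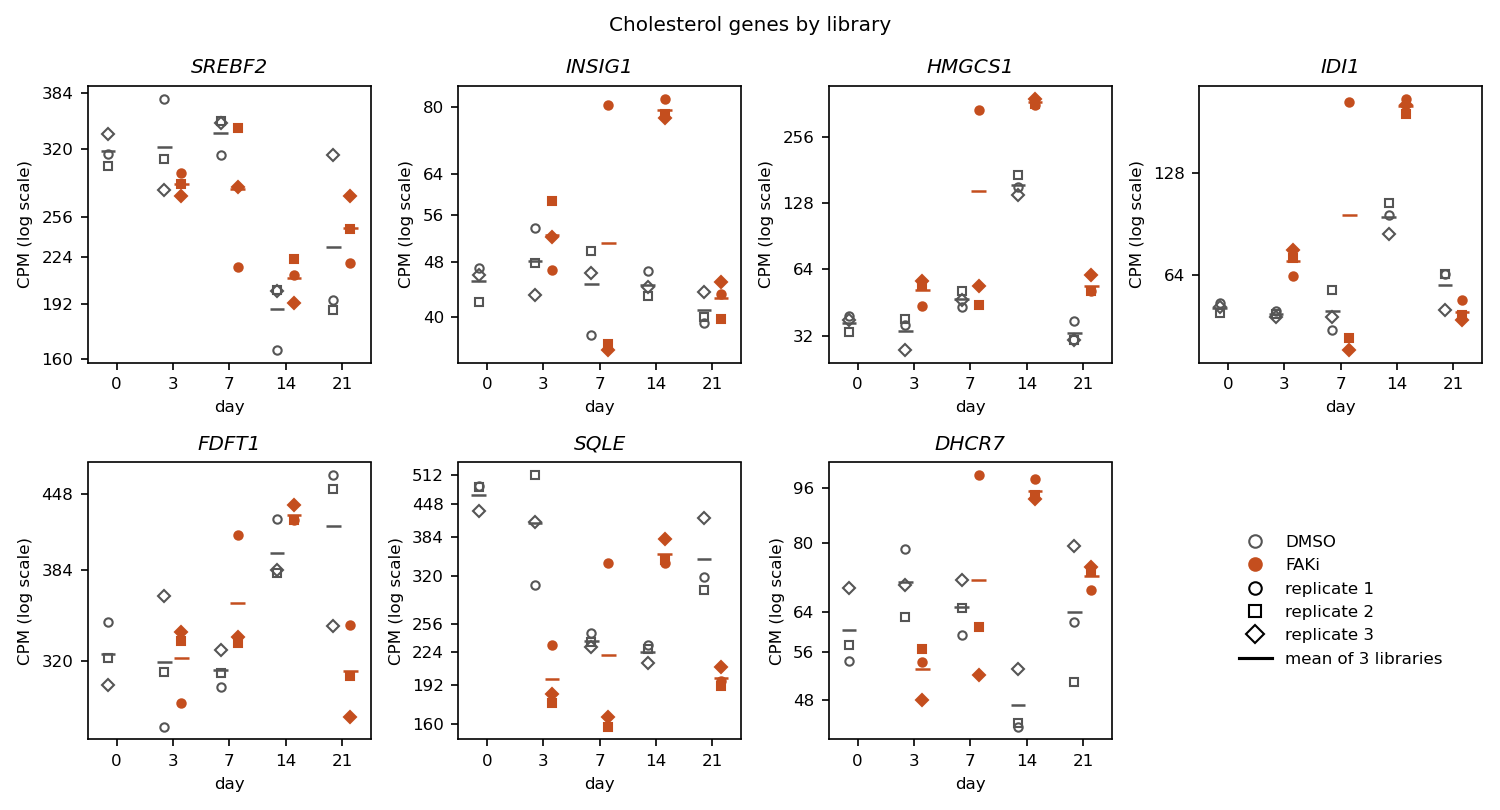
Level of each gene in every library, as CPM on a log2-spaced axis, by day, for DMSO (open, grey) and FAKi (filled, orange); symbols mark replicates 1 to 3 and short lines the mean of 3. The 3 FAKi libraries of day 14 and replicate 1 of FAKi day 7 sit together above the other libraries for *INSIG1*, *HMGCS1*, *IDI1* and *DHCR7*.

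*SREBF2*, which encodes SREBP2 (ENSG00000198911.12, chr22:41833164-41907306), was at 314, 303 and 336 CPM in the 3 DMSO libraries of day 0, and those of day 14 had 165, 201 and 200. The DMSO libraries of day 14 were all below those of day 0, and their mean, 189 ± 20.7 CPM (SD, n = 3), was the lowest of the 9 groups. FAKi libraries at day 14 had 211, 222 and 193 CPM, which overlapped with DMSO. At day 21 the DMSO libraries had 194, 189 and 313 CPM and the FAKi libraries 220, 246 and 274 CPM. The DMSO library at 313 CPM was replicate 3, the one that stood apart, and without it all FAKi libraries of day 21 were above DMSO. At day 7 the FAKi libraries had 217, 342 and 282 CPM, of which the lowest was replicate 1.

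*INSIG1*, the sterol-dependent anchor of SCAP (ENSG00000186480.13, chr7:155297878-155310235), varied little in most groups, with means between 40.9 and 52.5 CPM in 8 of the 9. The exception was FAKi at day 14, with 82.1, 78.1 and 77.1 CPM against 46.6, 42.9 and 44.2 CPM in DMSO. Every FAKi library of day 14 was above every DMSO library of every day, the highest of which had 53.6 CPM. At day 7 FAKi replicate 1 had 80.5 CPM and replicates 2 and 3 had 36.6 and 35.9 CPM, so that the first lay with day 14 and the others below the lowest DMSO library of day 7, at 37.8 CPM.

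*HMGCS1*, which condenses acetyl-CoA and acetoacetyl-CoA at the entry to the mevalonate pathway (ENSG00000112972.15, chr5:43287470-43313412), was the gene that moved furthest. In the DMSO libraries, day 0 gave 39.2, 33.2 and 37.7 CPM, day 3 gave 35.6, 38.0 and 27.5, day 7 gave 43.3, 51.0 and 46.6, day 14 gave 152, 172 and 140, and day 21 gave 37.2, 30.4 and 30.7. In DMSO, day 14 thus stood above all other days without overlap. In the FAKi libraries, day 3 gave 43.5, 54.1 and 56.6 CPM, day 7 gave 340, 44.1 and 54.0, day 14 gave 357, 363 and 382, and day 21 gave 50.9, 51.0 and 60.1. FAKi was above DMSO in every library at days 3, 14 and 21, and at day 7 replicate 1 was more than 6 times either of its replicates.

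Counts of *HMGCS1* need a caution that the other 6 genes need less. In GENCODE 44, 46.7% of the exon bases of the counted transcript lie under an antisense gene, ENSG00000261604, whose row had 16.8% to 49.3% as many counts as *HMGCS1*; the strand setting of the counting is not given in the sources used here, so its reads and those of *HMGCS1* cannot be told apart. The antisense share was 44.6% to 49.3% in DMSO and 36.0% to 39.3% in FAKi at day 14, against 23.4% to 27.5% in DMSO at day 0, and in FAKi day 7 replicate 1 it was 38.4%. So within day 14 it was lower in FAKi, where *HMGCS1* was higher, but across days it was higher at day 14, where *HMGCS1* was higher too. With the antisense counts taken off, the rise in DMSO from day 0 to day 14 was 2.97-fold instead of 4.20-fold, the mean level at day 14 was 81.4 ± 5.05 CPM in DMSO and 229 ± 14.2 CPM in FAKi (SD, n = 3), and the log2 ratio of FAKi to DMSO means was 0.50, 1.44, 1.49 and 1.09 at days 3, 7, 14 and 21. After this subtraction the FAKi and DMSO libraries of day 3 overlapped for *HMGCS1*. The subtraction took off every count of the antisense row, which can include reads of *HMGCS1* itself, so the values after it are not corrected levels. The exon overlap on the opposite strand was 5.13% for *IDI1*, with *IDI2-AS1*, and 3.42% for *SREBF2*, with *SREBF2-AS1*, and it was 0 for the other members.

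**Figure D2:**
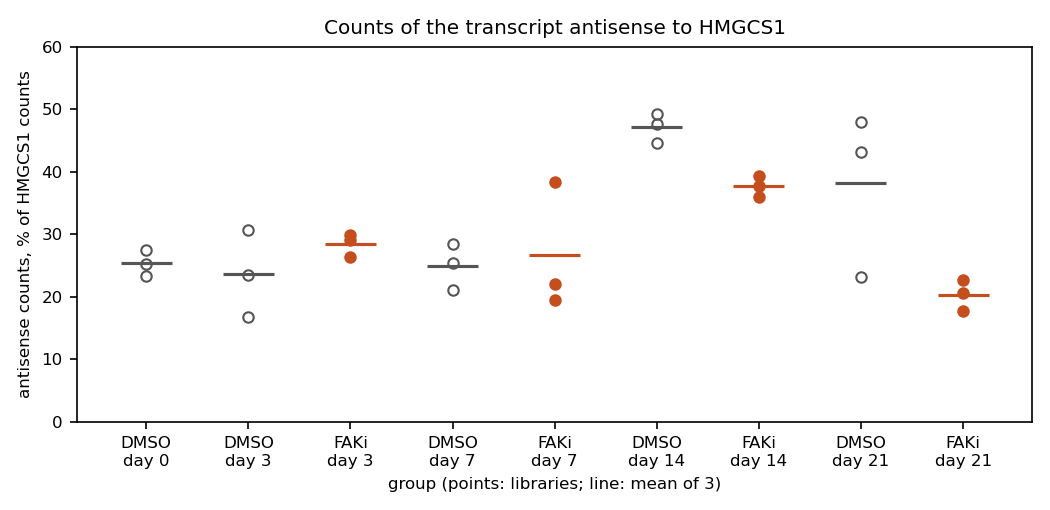
Counts of the transcript antisense to *HMGCS1* as a percentage of the *HMGCS1* counts of the same library, by group, with DMSO open and FAKi filled; lines mark the mean of 3 libraries. The share was between 16.8% and 49.3%, and at day 14 all FAKi libraries lay below all DMSO libraries.

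*IDI1*, which supplies the isoprene unit dimethylallyl diphosphate (ENSG00000067064.12, chr10:1039152-1048883), had a pattern near that of *HMGCS1* (Pearson's r = 0.93 of log2 CPM over the 27 libraries, a description, since libraries share days and treatments). Day 0 in DMSO gave 52.9, 49.3 and 51.3 CPM, day 14 in DMSO 95.9, 105 and 84.6, and day 14 in FAKi 213, 191 and 204. These 3 ranges did not overlap. At day 3 FAKi libraries, at 63.3, 71.7 and 75.8 CPM, were all above DMSO, at 50.1, 49.0 and 48.2 CPM. At day 21 the order of means turned, with 54.0, 48.6 and 47.0 CPM in FAKi and 64.6, 64.6 and 50.2 CPM in DMSO, but the ranges overlapped through DMSO replicate 3.

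*FDFT1*, whose product joins farnesyl diphosphate into squalene (ENSG00000079459.13, chr8:11802611-11839304), moved least, and its group means ran from 313 CPM in FAKi at day 21 to 430 CPM in FAKi at day 14. DMSO at day 14 had 426, 382 and 385 CPM and FAKi 425, 425 and 439 CPM, which overlapped. At day 21 DMSO had 466, 452 and 343 CPM and FAKi 344, 311 and 286 CPM, so that the groups would be apart without DMSO replicate 3. Over the 27 libraries *FDFT1* and *SREBF2* ran in opposite directions, with r = -0.84, also as a description.

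*SQLE*, which oxidises squalene and is a rate-limiting enzyme of the later part of the pathway (ENSG00000104549.12, chr8:124998505-125022283), did not follow *HMGCS1* (r = -0.02 over the 27 libraries). Its highest group was DMSO at day 0, with 486, 484 and 432 CPM, followed by DMSO at day 3, with 307, 512 and 412 CPM. In DMSO, day 7 then gave 245, 235 and 230 CPM, day 14 gave 232, 227 and 213, and day 21 gave 318, 299 and 420. All DMSO libraries of days 7 and 14 were below all of days 0, 3 and 21. In FAKi, day 3 gave 232, 177 and 185 CPM, day 7 gave 341, 158 and 166, day 14 gave 340, 345 and 381, and day 21 gave 196, 191 and 209. FAKi was below DMSO in every library at days 3 and 21 and above it in every library at day 14, so the order of the groups changed with the day.

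*DHCR7*, which reduces 7-dehydrocholesterol to cholesterol (ENSG00000172893.18, chr11:71434411-71448393), had its lowest group mean in DMSO at day 14 and its highest in FAKi at day 14. The libraries had 43.9, 44.4 and 53.0 CPM in DMSO and 98.9, 93.9 and 92.4 CPM in FAKi. In the other groups means lay between 53.0 and 71.9 CPM. FAKi day 7 replicate 1 had 100 CPM, above its replicates at 60.9 and 52.1 CPM. At day 3 FAKi, at 54.3, 56.6 and 48.0 CPM, was below DMSO, at 78.5, 62.9 and 69.9 CPM, in every library.

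The comparison of FAKi with DMSO on the same day asks how inhibition of FAK changed the cells over time. At day 14, in edgeR's quasi-likelihood F test with Benjamini-Hochberg adjustment over 23443 genes and a threshold of 0.05, 5 of the 7 genes were called higher, where 6.35% of all genes tested were, and 12% of the 10487 genes with a mean of at least 10 CPM, and none was called lower, where 6.1% were. The log2 fold change was 1.25 for *HMGCS1* (SE 0.10, edgeR adjusted p = 2.49e-08), 1.09 for *IDI1* (SE 0.10, edgeR adjusted p = 3.33e-07) and 1.01 for *DHCR7* (SE 0.11, edgeR adjusted p = 1.91e-06). These 3 also passed a log2 fold change of 1, which 0.614% of genes did upward, though *DHCR7* was at 0.96 without DMSO replicate 1 or 2 and at 0.98 without FAKi replicate 1. *INSIG1* was higher by 0.82 (SE 0.10, edgeR adjusted p = 1.14e-05) and *SQLE* by 0.66 (SE 0.09, edgeR adjusted p = 6.86e-05) on the log2 scale. For *FDFT1* the difference was 0.11 with an approximate 95% interval of -0.07 to 0.29, and for *SREBF2* it was 0.14 with an interval of -0.06 to 0.34.

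All 5 calls of day 14 were made whichever library was left out, and the 5 genes were also those whose FAKi and DMSO libraries did not overlap, which held upward for 15.1% and downward for 13.8% of genes. In a single edgeR fit of all 27 libraries, whose spread includes the libraries that stood apart, 2 of them were called, *INSIG1* (0.83, adjusted p = 0.0105) and *DHCR7* (1.01, adjusted p = 0.00117), and *HMGCS1* had an adjusted p of 0.0577, *IDI1* and *SQLE* of 0.0531 each. Proliferation genes were higher beside these 5: the summed level of 12 of them was 986 to 1053 CPM in DMSO and 1401 to 1430 CPM in FAKi at day 14, and its part in the result was not tested. Their level was also higher in FAKi at day 3, at 629 to 832 CPM in DMSO and 1081 to 1347 CPM in FAKi, and lower at day 21, at 615 to 645 CPM in DMSO and 383 to 405 CPM in FAKi. The melanocyte markers summed to 9135 to 9743 CPM in DMSO and 11788 to 12301 CPM in FAKi at day 14, but of the 6 only *PMEL*, a melanosome protein, was called (0.78, edgeR adjusted p = 3.20e-06), and the median log2 fold change of the 6 was 0.05.

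**Figure D3:**
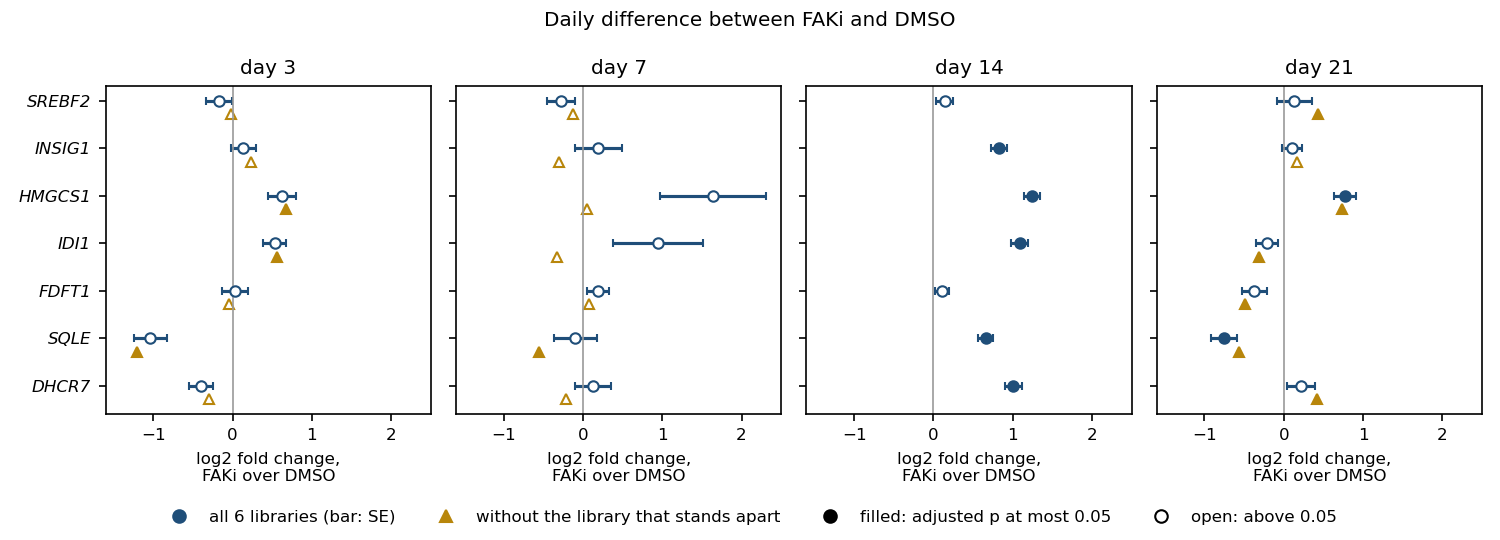
Log2 fold change of FAKi over DMSO for each gene at each day, from the fit of 6 libraries (circles, bars are standard errors) and without the library that stood apart at days 3, 7 and 21 (triangles); filled symbols have an adjusted p of at most 0.05. At day 14 the 5 filled circles lie between 0.66 and 1.25.

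At day 3 no gene of the 22846 tested was called by edgeR, so 0 of the 7 were against a background of 0%. At an unadjusted p under 0.05, 5442 genes (23.8%) and 4 of the 7 were found. Those were *SQLE* (log2 fold change -1.04, SE 0.21, edgeR adjusted p = 0.0945), *HMGCS1* (0.62, SE 0.18, edgeR adjusted p = 0.104), *IDI1* (0.53, SE 0.14, edgeR adjusted p = 0.0984) and *DHCR7* (-0.40, SE 0.15, edgeR adjusted p = 0.158). In all 4 the FAKi and DMSO libraries did not overlap, which holds upward for 15.1% and downward for 15.8% of genes. For *HMGCS1* they overlapped once the antisense counts were taken off, at 30.9, 37.9 and 41.6 CPM in FAKi and 27.3, 31.6 and 19.1 CPM in DMSO. Without DMSO replicate 1, which stood apart, edgeR called *HMGCS1* (0.67, adjusted p = 0.0119) and *IDI1* (0.56, adjusted p = 0.0112) higher and *SQLE* (-1.20, adjusted p = 0.000116) lower, beside 15.8% and 16.9% of genes called higher and lower. DESeq2 called the same 3 genes on all 6 libraries, with 746 genes (4.26%) higher and 1096 (6.25%) lower.

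At day 7 edgeR called none of the 7, and 0.0269% of the 22299 genes tested, 6 genes, all lower. At an unadjusted p under 0.05 there were 1955 genes (8.77%) and, of the 7, *HMGCS1* with a log2 fold change of 1.64 (SE 0.67, edgeR adjusted p = 0.539). DESeq2 called 87 genes (0.442%) higher and 112 (0.568%) lower and none of the 7. The FAKi and DMSO libraries of day 7 did not overlap for 1 of the 7, *FDFT1*, higher in FAKi, and for 8.25% of genes upward and 8.46% downward. The large standard error of *HMGCS1* comes with FAKi replicate 1, and without this library the difference was 0.05. *IDI1* turned from 0.95 to -0.32, *INSIG1* from 0.19 to -0.30 and *DHCR7* from 0.13 to -0.21 without it, none of them called, and *SQLE* went from -0.10 to -0.55 and was called lower (edgeR adjusted p = 0.00668), beside 1.44% of genes.

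At day 21 *HMGCS1* was higher in FAKi by 0.77 on the log2 scale (SE 0.14, edgeR adjusted p = 0.0150), where 5.27% of 23212 genes were called higher, and *SQLE* was lower by a log2 fold change of -0.75 (SE 0.17, edgeR adjusted p = 0.0286), where 6.32% were called lower. *FDFT1* (-0.37), *IDI1* (-0.21), *DHCR7* (0.22), *SREBF2* (0.13) and *INSIG1* (0.11) were not called. *HMGCS1* upward and *SQLE* downward were also the members without overlap between the groups, which held for 16.5% of genes upward and 18.9% downward. Neither call is firm with respect to single libraries: *HMGCS1* lost its call without FAKi replicate 1, 2 or 3 or DMSO replicate 2, with adjusted p of 0.0563 to 0.0877, and *SQLE* without any library other than DMSO replicate 3, with adjusted p of 0.0651 to 0.136. Without DMSO replicate 3, which stood apart, 6 of the 7 were called: *HMGCS1* (0.74), *SREBF2* (0.43) and *DHCR7* (0.42) higher, and *SQLE* (-0.57), *FDFT1* (-0.48) and *IDI1* (-0.31) lower, beside 24.8% and 23.7% of genes called higher and lower. Deviations of same-numbered libraries correlated at day 21, where DMSO replicate 3 stood apart, so pairing cannot be told from them. With the replicate number as a block *FDFT1* was called lower as well (-0.37, edgeR adjusted p = 0.0472), with 1 gene of the 7 higher and 2 lower beside 14.2% and 15.6% of all genes.

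Tests of the difference between days used the 24 libraries of days 3 to 21. The FAKi effect differed among the 4 days for *SQLE* (edgeR adjusted p = 0.00339) and *DHCR7* (edgeR adjusted p = 0.00802), where 10.3% of 27897 genes were called. For *SQLE* the effect at day 14 exceeded that at day 3 by 1.71 (SE 0.31, edgeR adjusted p = 0.00364) and the effect at day 21 fell short of that at day 14 by a difference of -1.42 (SE 0.31, edgeR adjusted p = 0.00417), with 7.13% and 11.1% of genes called for these differences. For *DHCR7* the same differences were 1.41 (SE 0.26, edgeR adjusted p = 0.00402) and -0.81 (SE 0.26, edgeR adjusted p = 0.0479). None of the 7 was called for the other differences between days, where 0.0323% of genes were called for day 7 minus day 3, 0.0179% for day 14 minus day 7, 1.97% for day 21 minus day 7 and 3.59% for day 21 minus day 3. *HMGCS1* was not called for a change among the 4 days (edgeR adjusted p = 0.514), although its fold change was larger at day 14 than at days 3 and 21. Without FAKi day 7 replicate 1, 5 genes were called, *HMGCS1*, *SQLE*, *INSIG1*, *IDI1* and *DHCR7*, against 16.1% of genes, and without all 3 libraries that stood apart 7 of 7 were, against 38.4%. Averaged over the 4 days, *HMGCS1* was higher in FAKi by 1.06 (SE 0.21, edgeR adjusted p = 0.00118), *IDI1* by 0.58 (SE 0.18, edgeR adjusted p = 0.0259) and *INSIG1* by 0.31 (SE 0.10, edgeR adjusted p = 0.0396), where 6.96% of genes were called higher, and none of the 7 was called lower, where 8.7% were. *INSIG1* lost this call in 17 of the 24 fits that left out 1 library, and kept it without DMSO day 3 replicate 1, day 7 replicate 2 or day 21 replicate 3, or FAKi day 3 replicate 1, day 7 replicate 2 or 3, or day 21 replicate 2. Without the 3 libraries these means were 0.67, 0.25 and 0.23, *DHCR7* (0.22) was called higher and *SQLE* (-0.42) lower as well, and 16.9% and 16% of genes were called higher and lower.

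DMSO cultures alone were compared with their own day 0, which shares the DMSO libraries of each day with the comparison above. At day 3 none of 22728 genes was called by edgeR, and at an unadjusted p under 0.05 there were 2242 genes (9.86%) and none of the 7. DESeq2 called 16 genes (0.0748%) higher, 12 (0.0561%) lower and none of the 7. Without DMSO day 3 replicate 1, edgeR called 10.8% of genes higher and 7.73% lower, and still none of the 7. At day 7 *SQLE* was lower (-0.99, SE 0.07, edgeR adjusted p = 2.40e-11) and *HMGCS1* higher (0.34, SE 0.08, edgeR adjusted p = 0.0113), where 2.46% and 2.47% of 21900 genes were called lower and higher. *HMGCS1* lost this call without DMSO day 0 replicate 2 or day 7 replicate 2.

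At day 14, 6 of the 7 differed from day 0 in DMSO. *HMGCS1* rose by 2.07 (SE 0.11, edgeR adjusted p = 1.65e-08), *IDI1* by 0.89 (SE 0.10, edgeR adjusted p = 1.51e-05) and *FDFT1* by 0.29 (SE 0.09, edgeR adjusted p = 0.0280) on the log2 scale, where 14.3% of 22669 genes were called higher. *SQLE* fell by 1.06 (SE 0.09, edgeR adjusted p = 1.65e-06), *SREBF2* fell by 0.75 (SE 0.10, edgeR adjusted p = 6.28e-05) and *DHCR7* fell by 0.36 (SE 0.11, edgeR adjusted p = 0.0286), where 14% were called lower. *INSIG1* had a difference of -0.02 with an approximate 95% interval of -0.21 to 0.17. So *HMGCS1* and *IDI1* were high in both treatments at day 14 and higher in FAKi, while *DHCR7* and *SQLE* were low in DMSO at day 14 and higher in FAKi. *FDFT1* lost its call without DMSO day 0 replicate 2 or 3, and *DHCR7* without either of these or without DMSO day 14 replicate 1 or 2.

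At day 21 none of the 7 was called against day 0, where edgeR called 24.1% of 22259 genes higher and 20.7% lower. *SQLE* (-0.44, edgeR adjusted p = 0.0551) and *FDFT1* (0.37, edgeR adjusted p = 0.0803) had an unadjusted p under 0.05, as 53.8% of genes did, and DESeq2 called 1 of the 7 lower, beside 21.8% of genes. Without DMSO day 21 replicate 3, *FDFT1* (0.49) and *IDI1* (0.32) were called higher and *SREBF2* (-0.74), *SQLE* (-0.61) and *INSIG1* (-0.20) lower, beside 35.4% and 34.3% of genes. Tested over all days at once, 5 of the 7 changed among days in the 15 DMSO libraries, all but *INSIG1* and *DHCR7*, where 49.9% of genes were called, and 6 in the 12 FAKi libraries, all but *SREBF2*, where 45.1% were; the share of all genes called was high in both. With single libraries left out, 4 to 6 were called in DMSO, where *FDFT1* kept its call in 5 of 15 fits (without day 3 replicate 1 or 3, day 14 replicate 2 or 3, or day 21 replicate 3) and *DHCR7* gained one without day 21 replicate 2 or 3. In FAKi 4 to 7 were called: *INSIG1* lost its call without day 14 replicate 1 or 2 or day 21 replicate 2, *FDFT1* without any of these or without day 3 replicate 1 or 2 or day 14 replicate 3, and *SREBF2* gained one without day 7 replicate 1 or 2. Without the libraries that stood apart, 6 in DMSO and 7 in FAKi were called, against 61.4% and 58% of genes.

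The other genes of the pathway were counted in the same fits, and those named beside a count of 5 or fewer were chosen after their values were seen. Of 14 further enzymes of cholesterol synthesis, 11 were called higher in FAKi at day 14 and none lower, where 6.35% and 6.1% of all genes tested were. Among genes with a mean of at least 10 CPM, 12% were called higher and 11.1% lower. The median log2 fold change of the 14 was 0.67, against 0.82 over the 7 genes and -0.01 over all genes tested. The 3 that were not called were *TM7SF2* (0.27), *LBR* (0.17) and *PMVK* (0.16). *HSD17B7*, a sterol ketoreductase of the demethylation steps, was higher in FAKi by 1.40 on the log2 scale (edgeR adjusted p = 5.52e-06). *MVK*, the mevalonate kinase, was higher by 1.11 (edgeR adjusted p = 2.24e-05) and *MSMO1*, the methylsterol oxidase, by 1.05 (edgeR adjusted p = 1.79e-06). These 3 were named after their values were seen. At day 21 none of the 14 was called higher, where 5.27% of all genes were. *TM7SF2* (-0.97, edgeR adjusted p = 0.0133) and *LBR* (-0.92, edgeR adjusted p = 0.0177), which both encode sterol C14 reductases, were called lower, where 6.32% were. The median of the 14 at day 21 was -0.23, against 0.01 over all genes tested.

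**Figure D4:**
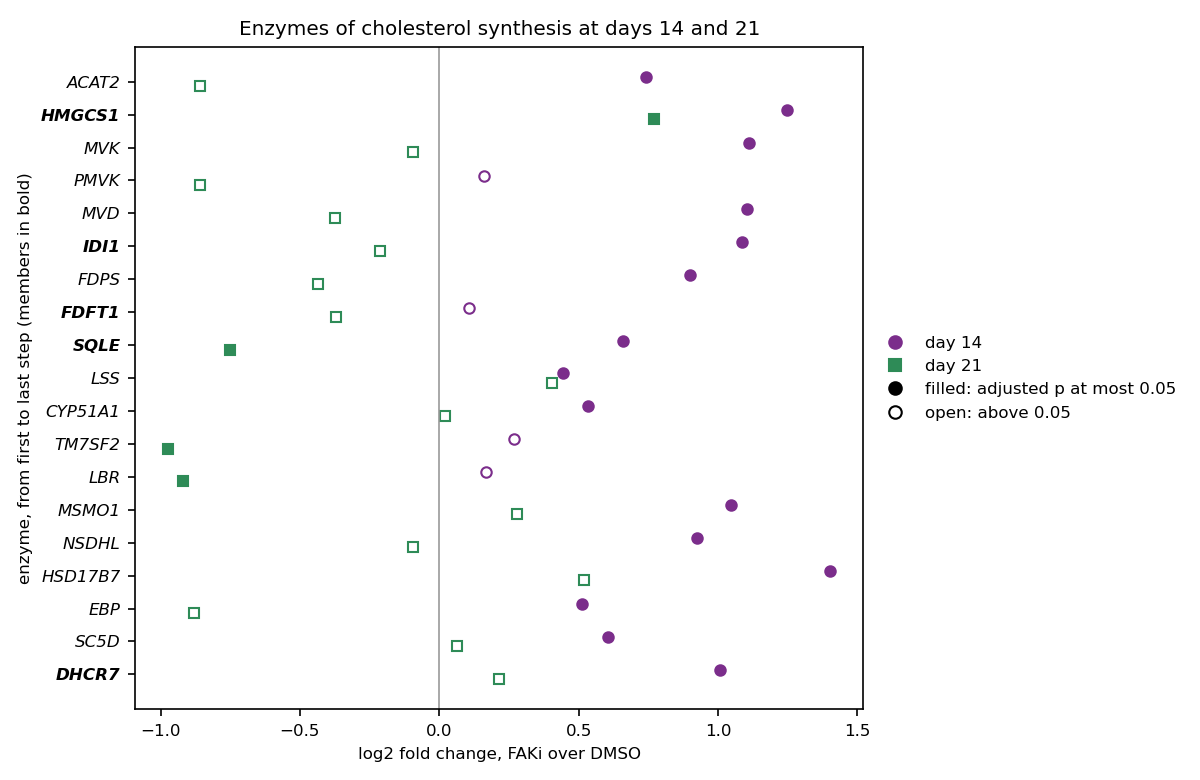
Log2 fold change of FAKi over DMSO at day 14 (circles) and day 21 (squares) for 19 enzymes of cholesterol synthesis in the order of the pathway, with the 5 enzymes among the 7 genes in bold; filled symbols have an adjusted p of at most 0.05. All 19 circles lie above 0, and the squares lie on both sides of 0.

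Among 10 genes that process SREBP, *SCAP*, the escort, was called higher at day 14 (0.39, edgeR adjusted p = 0.0430) and the median was -0.05. At day 21 *SREBF1*, which encodes the related factor SREBP1, was lower (-1.11, edgeR adjusted p = 0.00478), at 418 ± 27.4 CPM in DMSO and 188 ± 7.34 CPM in FAKi (SD, n = 3), and so was *RNF139*, a ubiquitin ligase of the endoplasmic reticulum (-0.59, edgeR adjusted p = 0.0470). Of 9 genes for uptake and intracellular transport, 4 were higher at day 14: *SCARB1* (0.95), the HDL receptor, *STARD4* (0.81), a sterol carrier, *NPC1* (0.48), which moves cholesterol out of lysosomes, and *SOAT1* (0.37), which makes cholesteryl esters. At day 21 none was called higher and *NPC2*, the lysosomal partner of *NPC1*, was lower (-0.83, edgeR adjusted p = 0.0403). Beside both lists, 6.35% of all genes were called higher at day 14, and 5.27% higher and 6.32% lower at day 21.

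Neighbouring pathways were counted in the same way. Of all genes tested, 6.35% were called higher and 6.1% lower at day 14, and 5.27% higher and 6.32% lower at day 21. Among genes with a mean of at least 10 CPM, 12% were called higher at day 14. Of 10 genes of fatty acid synthesis, 5 were higher at day 14, *FASN* (0.94), *ACSS2* (0.62), *FADS2* (0.51), *ACLY* (0.50) and *ELOVL6* (0.47), with a median of 0.38, and at day 21 *LPIN1* (0.59) and *FADS2* (0.54) were higher and *SREBF1*, which this list also holds, was lower. Of 7 genes of sterol efflux and its receptor LXR, 5 passed the filter at day 14 and none was called at any of the 4 days. None of 10 genes that use isoprenoids for other products was called at day 14, and *COQ2*, of ubiquinone synthesis, was lower at day 21 (-0.89, edgeR adjusted p = 0.0169). No gene of any of these lists was called at day 3 or day 7. In the proliferation list 9 of 12 were higher at day 14 and 7 of 12 lower at day 21, among them *CCNB1* (-1.20), *CDK1* (-1.12), *AURKA* (-0.92) and *PLK1* (-0.82), which drive mitosis.

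The genes whose pattern was most like the 7 together were found from the correlation of log2 CPM with their mean z-score over the 27 libraries, among 10480 genes with a mean of at least 10 CPM. They were *WDR1*, an actin-disassembly cofactor (r = 0.93), *KIF1C*, a kinesin motor (0.91), *ACSS2*, which makes acetyl-CoA from acetate (0.90), *SLC29A1*, a nucleoside transporter (0.90), and *MCM6*, a subunit of the replicative helicase (0.88). These correlations share the 4 libraries in which most of the 7 were high, the 3 of FAKi day 14 and replicate 1 of FAKi day 7.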

How the data were processed

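RNA of 27 libraries of 92.1 cells was measured by mRNA sequencing with a stranded kit. Per the file headers and the submitters' processing notes, the authors trimmed reads with Trim Galore, checked them with FastQC 0.11.8, aligned them to hg38 with STAR 2.5.3a and counted with HOMER; the deposited values are raw counts over the exons of 1 transcript per gene of GENCODE 39, without normalization. The strand setting is not given in the sources used here. All columns were matched to samples by label, with 0 left over. Libraries held 12161994 to 43651551 counts, and the precision of a value was estimated from 3 replicates per group.

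Counts were tested with edgeR 4.0.16 in R 4.3.3 (glmQLFit, glmQLFTest), in place of the DESeq2 of the study's methods, after TMM scaling and removal of genes with fewer than 20 counts in total. Daily comparisons used the 6 libraries of both groups, the tests among days and of the mean effect 24 libraries, and those within a treatment 15 or 12. A call needed an adjusted p no larger than 0.05 over all genes and, where stated, a log2 fold change over 1. Standard errors were derived from the log2 fold change and its F statistic. Intervals given as 95% use a normal approximation and are narrower than the F test would give. Scripts were tested on simulated data with known changes. Alternatives were RLE scaling, no count filter, DESeq2 1.42.0, 1 fit of 27 libraries, the replicate number as a block, and each library left out; leaving out 3 libraries together was chosen after seeing the data. Replicate numbers come from the titles. Deviations of same-numbered libraries from their group means had r = 0.60, 0.25 and 0.78 over 12709 genes at day 21 of FAKi against DMSO. The deviations of a group sum to 0 and DMSO day 21 replicate 3 stood apart, so these values are not independent and cannot show pairing. At day 3 of FAKi against DMSO r was 0.002, 0.065 and 0.14, and each other comparison held a negative r.

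The members, lists and tests were chosen with earlier results of these data known. Named genes were the 7 members, up to 4 genes of each list with the smallest p at day 21 among those called there, and the 5 most alike genes; others were named beside small counts. Of the lists of pathway genes, 4 genes are not reported here and were left out of the counts and medians. Sequences were read from RefSeq, GRCh38.p14.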

Additional observations from a re-analysis of the deposited data

Results flagged for a closer look

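For *SQLE* and *DHCR7* the difference between FAKi and DMSO was itself different among days 3, 7, 14 and 21, in a test of the 3 interaction terms over 24 libraries (edgeR adjusted p = 0.00339 and 0.00802). Of all 27897 genes tested, 10.3% were called. *SQLE* was lower in FAKi at days 3 and 21 and higher at day 14 in every library, and *DHCR7* was lower in every library at day 3 and higher in every library at day 14. Such groups without overlap held for 15.8% of genes downward at day 3, 15.1% upward at day 14 and 18.9% downward at day 21. Neither gene was called at day 3 (edgeR adjusted p = 0.0945 and 0.158). At day 21 *SQLE* lost its call without any library other than DMSO replicate 3. For the difference among days, both genes were called whichever library was left out.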

How the results depend on the processing

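At day 14 the 5 calls held under RLE scaling, no count filter, DESeq2, the replicate block and each library left out; the 3 past a log2 fold change of 1 held under the first 4 of these and were 2 to 3 with a library left out. The share of all genes called higher at day 14 was 3.1% to 9.31% in these settings. The 5 and the 3 fell to 2 and 1 in a single fit of 27 libraries, where 2.82% of all genes were called higher. That fit also gave 1 lower call at day 3, past a log2 fold change of 1, beside 5.79% of genes. At day 21 it gave 0 higher and 2 lower calls, beside 7.96% and 11.3%. In DMSO against day 0 it gave 0 higher calls at day 7, 1 at day 14, and 1 higher and 1 lower at day 21, beside 0.128%, 7.62%, 18.8% and 18.3%. With no count filter there were 1 higher and 1 lower call at day 3, 1 of them past the fold, beside 3.35% and 5.6% of all genes. It also gave 2 higher calls at day 7, 1 past the fold, beside 0.632%, and 1 lower call in DMSO at day 21, beside 13.1%. The FAKi effect then differed among days for 4 genes, beside 11.4%. DESeq2 gave 2 higher and 1 lower call at day 3, 1 of them past the fold, beside 4.26% and 6.25%, and 1 lower call in DMSO at day 21, beside 21.8%. For the mean effect over days, RLE scaling, no count filter, DESeq2 and leaving out the 3 libraries each added 1 lower call, beside 9.12%, 6.83%, 12.8% and 16% of genes. Leaving out the 3 libraries gave 7 genes whose effect differed among days, beside 38.4%. DESeq2 gave no adjusted p for the mean effect of *HMGCS1*. With the replicate number as a block, there were 2 lower calls at day 21 and 1 in DMSO at day 21, beside 15.6% and 20.5% of genes. *INSIG1* was not called in the mean effect (edgeR adjusted p = 0.0519), and no other call changed. The cause of these changes was not tested.

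Leaving out each library in turn gave, at day 3, 0 to 2 higher and 0 to 1 lower calls, 0 to 1 past the fold. The most came without DMSO replicate 1, beside 15.8% and 16.9% of all genes. At day 7 it gave 0 to 1 lower calls, the 1 beside 1.44% of genes. At day 21 it gave 0 to 3 higher and 0 to 3 lower calls, the most without DMSO replicate 3, beside 24.8% and 23.7% of genes. In DMSO, leaving out each library gave 0 to 1 higher calls at day 7, beside 1.33% to 3.02% of genes. At day 21 in DMSO it gave 0 to 2 higher and 0 to 3 lower calls, the most beside 35.4% and 34.3%. For the mean effect it gave 2 to 4 higher and 0 to 1 lower calls, beside 4.88% to 12.6% and 6.52% to 12%. The effect differed among days for 2 to 5 genes, beside 5.69% to 21.8%. In DMSO and in FAKi 4 to 6 and 4 to 7 genes changed among days, beside 37.4% to 56.8% and 34.7% to 58%. The sign of some differences turned. In FAKi against DMSO these were *FDFT1* at day 3 (-0.049 to 0.128, and -0.0056 with no count filter) and, at day 7, *SQLE* (-0.55 to 0.10), *INSIG1* (-0.30 to 0.40), *IDI1* (-0.32 to 1.33) and *DHCR7* (-0.21 to 0.31). In DMSO they were *INSIG1* (-0.0118 to 0.148), *FDFT1* (-0.15 to 0.0376) and *SREBF2* (-0.132 to 0.0917; 0.0097 with no count filter, 0.0202 in the fit of 27) at day 3, *INSIG1* (-0.116 to 0.0737) and *IDI1* (-0.169 to 0.0286) at day 7, *INSIG1* at day 14 (-0.0652 to 0.0131) and *DHCR7* at day 21 (-0.11 to 0.21). In the mean effect they were *FDFT1* (-0.0439 to 0.0093) and *SREBF2* (-0.0897 to 0.0294, and 0.10 without the 3 libraries). Precision rested on 3 libraries per group, and each gene had at least 407 counts in each library.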
